A study of Mus musculus with 2 samples.

Results

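The miR-15/16 family comprises 6 mouse miRNAs on the NanoString panel, mmu-miR-15a, mmu-miR-15b, mmu-miR-16, mmu-miR-195, mmu-miR-497 and mmu-miR-322, out of 566 mouse miRNA probes. They were chosen by name, by a rule that uses no measured value though earlier results of these data were known, and all 6 were present. In Dicer-CKO Müller glia (MG), 3 members, miR-15a, miR-15b and miR-16, were detected. They lay at 38.3%, 26.8% and 46.2% of their wild-type levels after scaling to housekeeping mRNAs. When the summed miRNAs were the scale all 3 lay above wild-type, miR-15b at 112%, but none reached the 2-fold set for a call. The other 3 were at background in Dicer-CKO MG, and in wild-type MG they were weak or at background too.

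MG are the main glial cells of the retina. They were sorted for tdTomato by FACS from adult Dicer-CKO mice (Rlbp1-CreER:tdTomato:Dicerf/f) and from adult wild-type mice (Rlbp1-CreER:tdTomato). Both groups carried the Rlbp1 promoter-driven CreER, which acts in MG, and both received tamoxifen, which activates it, at 75 mg/kg by injection from postnatal day 11 to 14. In the Dicer-CKO mice CreER also deletes the floxed part of Dicer1, in MG. Cells of 26 retinas were pooled for the Dicer-CKO library and cells of 40 retinas for the wild-type library, as the sample descriptions give it. The extraction text repeats 26 retinas for both. Each group is therefore 1 library, and no spread between animals and no test across samples could be had. All intervals below are 95% intervals that cover counting error in these 2 libraries only, with the spread of the negative controls added where stated. The panel reads miRNAs and a few control mRNAs, and Dicer1 itself was not analysed here, so the deletion could not be checked on its target.

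Dicer cuts the hairpin precursors of miRNAs into the mature strands that are loaded into Argonaute. Members of the miR-15/16 family share their seed, the bases at positions 2 to 8 from the 5′ end that pair with target mRNAs. They are known for holding back the cell cycle through cyclins D1, D3 and E1, Cdk6 and Wee1, and for repressing the survival gene Bcl2. MG are quiescent in the adult mammalian retina, and miRNAs that act on the cell cycle are of interest in these cells for that reason. The panel measured the miRNAs and none of these targets.

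The mature sequences are shown because the common seed defines the family and because the bases after it are what separates one member from another. They were read from RefSeq (GRCm38.p6), 5′ to 3′, with the seed in capitals. The panel names miR-195 and miR-497 were matched to the RefSeq names miR-195a-5p and miR-497a-5p.
miR-15a: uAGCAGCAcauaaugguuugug
miR-15b: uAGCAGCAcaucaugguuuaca
miR-16: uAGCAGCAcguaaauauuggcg
miR-195: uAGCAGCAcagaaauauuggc
miR-497: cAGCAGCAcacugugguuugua
miR-322: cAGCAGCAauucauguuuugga

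All 6 carried the seed AGCAGCA. The first 9 bases were shared by miR-15a, miR-15b, miR-16 and miR-195, while miR-497 and miR-322 differ from them at the first base (U1C, counted from the 5′ end, with the base of miR-16 first). The closest pair was miR-16 and miR-195, with 19 identical positions of 21 and the substitutions G10A and U11G from miR-16 to miR-195. miR-15a and miR-15b were identical at 18 of 22 positions, miR-15a and miR-497 at 17 of 22. How far a probe for one member also reads its nearest relative was not tested. Among 1679 mature mouse miRNA names in the RefSeq table, 10 had this seed. Besides the 6 members these were miR-195b, miR-6342, miR-6353 and miR-6419, none of which had a probe of its own on the panel.

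The members derive from 4 genomic clusters. Mir15a (chr14:61632075-61632096 for the mature strand, minus strand) and Mir16-1 (chr14:61631936-61631957, minus strand) lie within the bounds of the lncRNA gene Dleu2, with 117 bases between the mature strands. Mir15b (chr3:69009775-69009796, plus strand) and Mir16-2 (chr3:69009918-69009939, plus strand) lie within Smc4, a gene for a condensin subunit, with 121 bases between them. Mir497 (chr11:70234730-70234751) and Mir195a (chr11:70235062-70235082) lie on the plus strand of chromosome 11 with no other kind of gene spanning them in the table. Mir322 (chrX:53054306-53054327, minus strand) lies within the lncRNA gene C430049B03Rik on the X chromosome. The hairpins of both miR-16 genes are printed because they give the same mature strand, here in capitals, so that the miR-16 count is the sum of 2 genes and cannot be split.
Mir16-1: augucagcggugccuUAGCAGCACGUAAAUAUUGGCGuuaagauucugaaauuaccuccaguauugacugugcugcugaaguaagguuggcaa
Mir16-2: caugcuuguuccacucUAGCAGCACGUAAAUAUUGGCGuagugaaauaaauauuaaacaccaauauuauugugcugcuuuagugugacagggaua

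The Dicer-CKO library held 139812 barcodes over all probes and the wild-type library 769736. Of the 566 mouse miRNAs, 77 were detected in Dicer-CKO MG and 171 in wild-type MG, with 74 detected in both. Detection required a raw count more than 2 SD over the average of the 8 negative controls, that is 53.2 in Dicer-CKO MG and 71.7 in wild-type MG. After subtraction of the mean negative control and scaling to the positive controls and the 4 housekeeping mRNAs Actb, B2m, Gapdh and Rpl19, these limits became normalized counts of 90.0 in Dicer-CKO MG and 23.6 in wild-type MG. The limit for detection was thus higher in Dicer-CKO MG.

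miR-16 was by far the member with the highest count. Its raw count was 780 in Dicer-CKO MG and 6325 in wild-type MG, which gave normalized counts of 2081 (1934 to 2237) in Dicer-CKO MG and 4500 (4389 to 4613) in wild-type MG. The Dicer-CKO level was 46.2% of wild-type (42.9 to 49.8%), a log2 ratio of -1.11. It ranked 15th of the 566 mouse probes in both libraries. On this scale the fall was just over the 2-fold that was set for a call. It was no longer called when B2m was left out of the scaling, with a log2 ratio of -0.99.

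miR-15b, which is made from the same chromosome 3 locus as Mir16-2, had the lowest percentage left among the 3 on this scale, though not when 2 SD more of the negative controls was taken off, where miR-15a was at 12.0% and miR-15b at 13.8%. Its raw count was 77 in Dicer-CKO MG and 847 in wild-type MG, and its normalized count 155 (111 to 208) in Dicer-CKO MG and 579 (539 to 621) in wild-type MG. This was 26.8% of wild-type (20.9 to 33.9%), a log2 ratio of -1.90. The miR-15b probe ranked 59th in Dicer-CKO MG and 41st in wild-type MG.

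miR-15a, made from the Dleu2 locus together with Mir16-1, was just above background in Dicer-CKO MG. Its raw count was 64 in Dicer-CKO MG, where the highest negative control had 59, and 475 in wild-type MG. The normalized count was 120 (79.2 to 168) in Dicer-CKO MG and 312 (282 to 344) in wild-type MG, or 38.3% of wild-type (29.0 to 49.8%) with a log2 ratio of -1.39. Adding the spread of the negative controls to the error widened this interval to 16.02 to 91.4%, that of miR-15b to 13.6 to 52.9% and that of miR-16 to 42.3 to 50.5%. Equality lay outside all 3.

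miR-195 and miR-322 were seen in wild-type MG only, and neither could be given a direction. miR-195 had a raw count of 24 in Dicer-CKO MG, within the negative controls (7 to 59), and 96 in wild-type MG, with a normalized count of 41.1 in wild-type MG. miR-322, the mouse counterpart of human miR-424, had 42 in Dicer-CKO MG, also within the negative controls, and 125 in wild-type MG, with a normalized count of 61.8 in wild-type MG. The Dicer-CKO detection limit corresponded to 219% of the wild-type level for miR-195 and to 146% for miR-322, so at this depth an unchanged level of either could not have been seen in Dicer-CKO MG. miR-497 was at or below the limit in both libraries, with raw counts of 17 in Dicer-CKO MG and 64 in wild-type MG, where the highest negative control had 62.

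**Figure D1:**
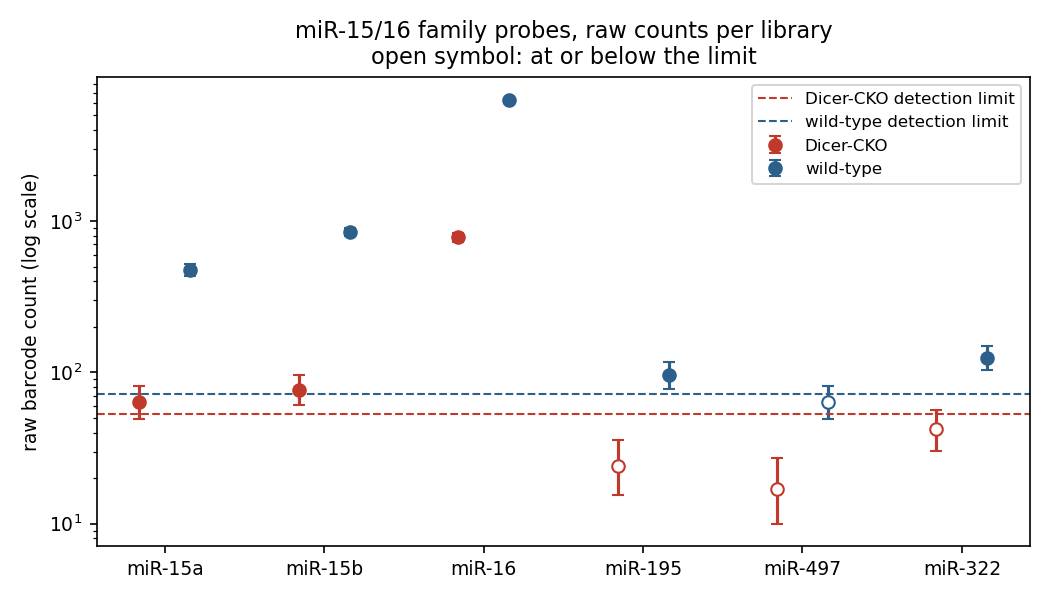
Raw barcode counts of the 6 family probes (log axis) in the Dicer-CKO (red) and wild-type (blue) libraries, with exact 95% Poisson intervals as bars and each library's detection limit as a dashed line. Open symbols are at or below the limit; in Dicer-CKO MG miR-15a (64) and miR-15b (77) sit just above it and miR-16 (780) well above it.

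Of the 6 members 5 were detected in either library. Of these 3 were called lower in Dicer-CKO MG by the rule of at least 2-fold and a counting interval that leaves out equality. This is set against 29.9% of the 174 mouse miRNAs detected in either library. Of the 174, 69 had a bound that settled no direction and could not be called, as had 2 of the 5 members. No member was called higher, against 12.1% of the 174. The 3 measured members summed to a normalized count of 2356 in Dicer-CKO MG and 5391 in wild-type MG, so that 43.7% (40.8 to 46.8%) was left. Their median log2 ratio was -1.39, and the median over the 74 miRNAs detected in both libraries was -1.12. Shares and medians over 3 measured members are descriptions, and nothing here is particular to the family. miR-16 lay 0.0047 above this median on the log2 scale, with 37 of the 74 lower and 36 higher, while miR-15a had 31 lower and miR-15b 19 lower.

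Being among these 74 required a count above the limit in Dicer-CKO MG, which leaves out the probes that fell below it. The members were therefore also set beside every probe that was detected in wild-type MG within 2-fold of their wild-type level, with probes missing from Dicer-CKO MG taken at their bound. For miR-16 there were 11, all detected in both libraries, which kept 9.32% to 70.4% of their wild-type level with a median of 26.0%. Of these 9 kept less than miR-16 and 2 kept more. For miR-15b there were 29, of which 10 kept less, 15 kept more and 4 were at a bound that did not settle it. For miR-15a there were 33, of which 14 kept less, 13 kept more and 6 were not settled. Most probes of like level thus kept less than miR-16. For miR-15b 15 of the 29 kept more than it, and for miR-15a they were spread to both sides.

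**Figure D2:**
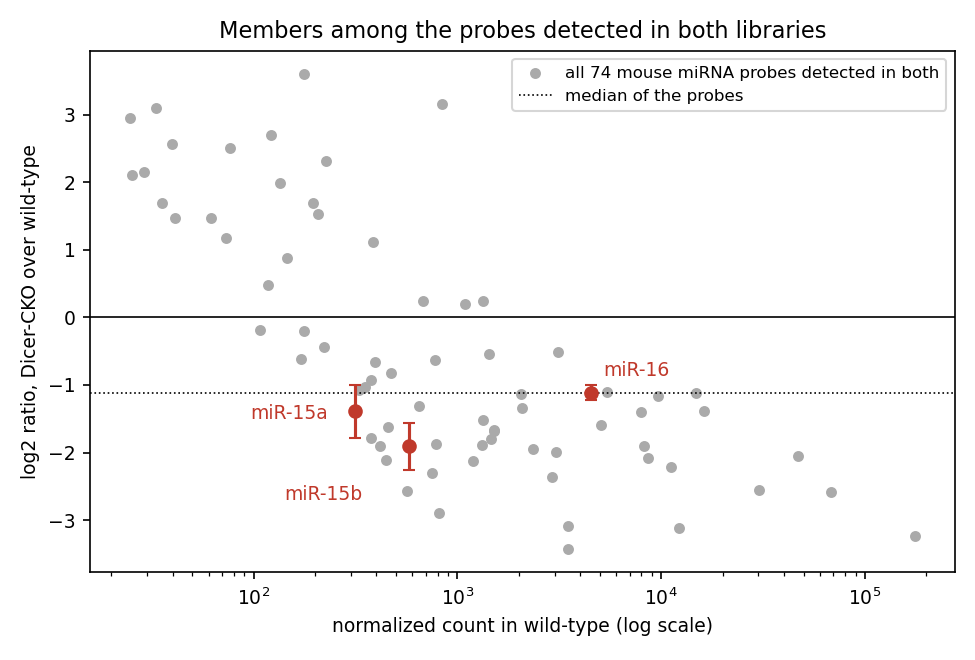
Log2 ratio of Dicer-CKO over wild-type against the normalized count in wild-type (log axis) for the 74 mouse miRNA probes detected in both libraries, with the 3 measured members in red and their counting intervals as bars. miR-16 (-1.11) lies on the median of all 74 (-1.12, dotted), miR-15a (-1.39) and miR-15b (-1.90) below it.

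The direction for the whole family depended on what the libraries were scaled to. Scaled to the housekeeping mRNAs all 3 measured members were lower in Dicer-CKO MG, and scaled to the sum of the detected miRNAs all 3 were higher, with log2 ratios of 0.95 for miR-16, 0.68 for miR-15a and 0.16 for miR-15b. None of these rises reached the 2-fold set for a call. In raw counts, the Dicer-CKO library had 7.57% of the wild-type barcodes over all mouse miRNA probes, but 12.3% of those for miR-16, 13.5% for miR-15a and 9.09% for miR-15b. It had 22.1% to 35.7% of the wild-type counts for the 4 housekeeping mRNAs. As a share of all mouse miRNA barcodes the 6 probes together took 1.91% (1.79 to 2.03%) in Dicer-CKO MG and 1.14% (1.12 to 1.17%) in wild-type MG, and miR-16 alone 1.48% (1.38 to 1.59%) in Dicer-CKO MG and 0.91% (0.89 to 0.93%) in wild-type MG. For miR-15b alone the shares overlapped, at 0.146% (0.115 to 0.183%) in Dicer-CKO MG and 0.122% (0.114 to 0.130%) in wild-type MG. The family thus took a larger share of the miRNA total in Dicer-CKO MG while it was lower relative to the mRNAs. This was not particular to it. The 29 other cell cycle probes described below took 12638 of 52644 barcodes in Dicer-CKO MG and 94979 of 695390 in wild-type MG. The neuronal miR-124 alone gave 2759 of the 12638 and 1211 of the 94979. miR-204, the highest probe in both libraries, had only 2.79% of its wild-type raw count. The methods give about the same amount of total RNA for each library. In such pooled cells, fewer MG among those sorted and less of a miRNA per cell cannot be told apart.

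Among the 4 housekeeping mRNAs, the choice moved miR-16 across the 2-fold line. Scaled to B2m alone its log2 ratio was -1.48, to Actb alone -1.18, to Rpl19 alone -1.03 and to Gapdh alone -0.75. Scaling to the 100 highest miRNAs gave -0.18, and scaling to the positive controls only, which leaves the amount of input RNA in the values, gave -3.55. The order of the members, with miR-15b lowest and miR-16 highest, is the same under each of these scalings by construction.

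**Figure D3:**
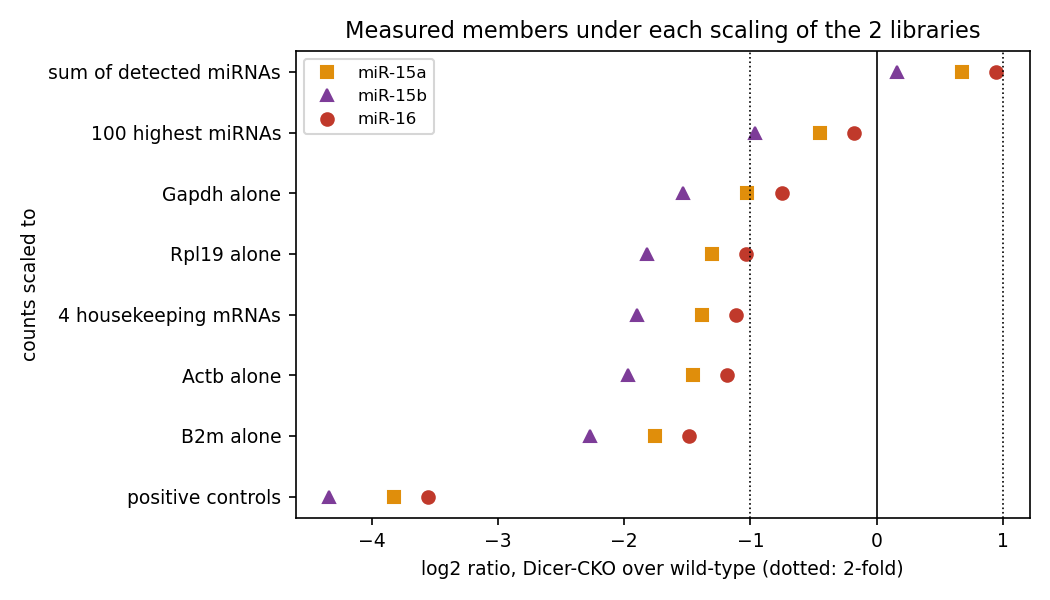
Log2 ratio of Dicer-CKO over wild-type for miR-15a (squares), miR-15b (triangles) and miR-16 (circles) with the 2 libraries scaled in 8 ways, ordered by miR-16. All 3 are below 0 in 7 of them and above 0 with the summed detected miRNAs as the scale, where miR-16 reaches 0.95.

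Differences between members do not depend on the scale, but they do on the background taken off. The log2 ratio of miR-16 was 0.79 above that of miR-15b, with an interval of 0.32 to 1.25 from counting error, but of -0.20 to 1.78 once the spread of the negative controls was added. In counts above background, miR-16 was 13.4 times miR-15b in Dicer-CKO MG and 7.78 times in wild-type MG. From counting error alone, the difference between miR-16 and miR-15a was 0.27 (-0.28 to 0.82), and that between miR-15a and miR-15b 0.51 (-0.19 to 1.21). With the background spread added, the intervals of all 3 pairs held 0, from -0.99 to 1.54 for miR-16 against miR-15a and from -1.08 to 2.11 for miR-15a against miR-15b. They reach past 2-fold, so the members were neither shown to differ nor shown to be alike.

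miR-16 held most of the family count in both libraries. Of the counts above background of the 3 measured members, miR-16 held 88.3% in Dicer-CKO MG and 83.5% in wild-type MG, miR-15b held 6.59% in Dicer-CKO MG and 10.7% in wild-type MG, and miR-15a held 5.07% in Dicer-CKO MG and 5.79% in wild-type MG. Over the raw counts of all 6 probes, with background included, miR-16 held 77.7% (75.0 to 80.2%) in Dicer-CKO MG and 79.7% (78.8 to 80.6%) in wild-type MG. For miR-15b the raw shares were 7.67% (6.10 to 9.49%) in Dicer-CKO MG and 10.7% (10.01 to 11.4%) in wild-type MG, and their intervals did not overlap. Those of miR-195 (2.39% in Dicer-CKO MG and 1.21% in wild-type MG) and miR-322 (4.18% and 1.58%) did not overlap either, in the other direction. Both of these were at background in Dicer-CKO MG, so raw shares, which include background, do not settle a change of a member within the family. By level, the order in Dicer-CKO MG was miR-16, then miR-15b and miR-15a, whose intervals overlapped. In wild-type MG it was miR-16, miR-15b, miR-15a, miR-322 and miR-195, with overlap only between miR-322 and miR-195. These are levels of probes, which can bind with different strength, and not numbers of molecules.

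Relatives that share the seed letters in part or at another position were weaker than miR-16. miR-103, whose first 7 bases are the family seed shifted by 1 position, had a raw count of 39 in Dicer-CKO MG, below the limit, and 468 in wild-type MG. It was lower in Dicer-CKO MG by the bound, at no more than 29.3% of wild-type, a call that was lost when counts were scaled to the 100 highest miRNAs or to the sum of detected miRNAs. Its near twin miR-107 had 17 in Dicer-CKO MG and 118 in wild-type MG, and its direction was not settled. miR-503, which shares bases 2 to 7 of the seed and lies 256 bases from Mir322 in the X-linked cluster, was at background with 12 in Dicer-CKO MG and 14 in wild-type MG. Of the 8 other probes of this cluster on the panel (miR-503, miR-351 and the miR-542 and miR-450 strands), none was detected in Dicer-CKO MG and 1, miR-542-5p, in wild-type MG, with raw counts of 34 in Dicer-CKO MG and 88 in wild-type MG. The weak miR-322 signal in wild-type MG was thus the highest of its cluster. No probe for the opposite strands of the 6 members was found by name among the probes.

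Outside the family, a list of 29 probes for other miRNAs known for acting on the cell cycle, such as let-7 and the miR-17, miR-25, miR-26, miR-29 and miR-34 families and including miR-103 and miR-107, was counted in the same way. Of the 23 detected in either library 11 were called lower in Dicer-CKO MG and 2 higher, against 29.9% and 12.1% of all 174. For 5 of the 23 the bound settled no direction. The 14 detected in both libraries had a median log2 ratio of -1.28, which turned to 0.79 when scaled to the summed detected miRNAs. let-7b, the lowest of these 14, kept 21.5% (20.1 to 23.0%), and let-7a, let-7c, let-7d, let-7e, let-7g and let-7i kept 26.0% to 44.4%, while let-7f at 68.5% was not called. miR-25, of the cluster paralogous to miR-17-92, kept 28.6%. miR-29b and miR-29c lay at 115% and 118% of wild-type and were not called. The 2 called higher were miR-26b at 216% and the neuronal miR-124 at 894%. miR-16 as a percentage of the summed count of these 14 was 6.32% in Dicer-CKO MG and 6.80% in wild-type MG. That sum holds miR-124, at 7503 of 32918.5 in Dicer-CKO MG and 839 of 66167 in wild-type MG. The percentages therefore depend on this neuronal miRNA and do not show how miR-16 changed against the others.

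**Figure D4:**
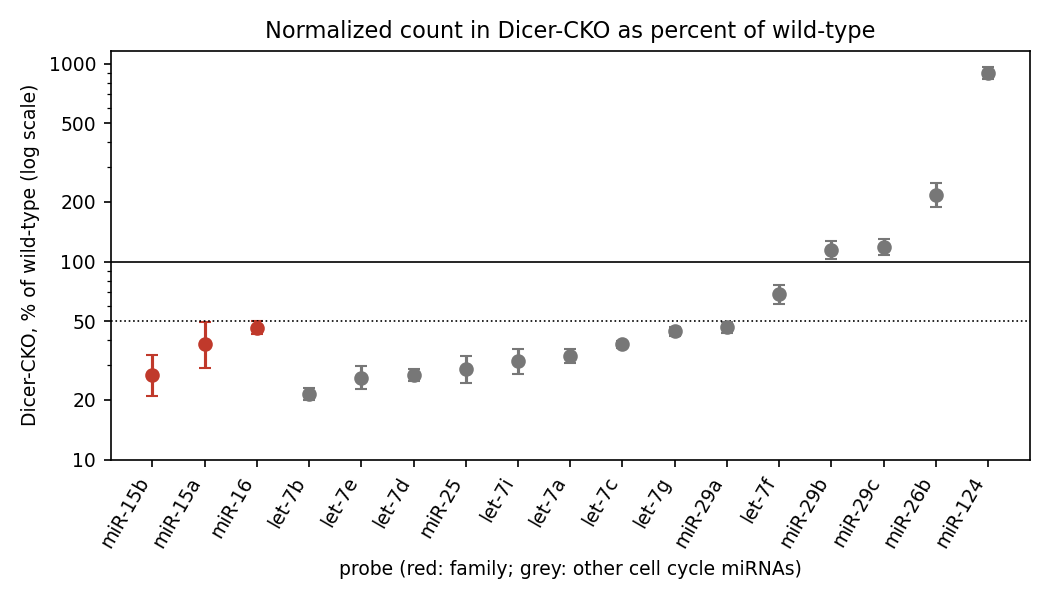
Normalized count in Dicer-CKO MG as percent of wild-type (log axis) with exact 95% binomial intervals as bars, for the 3 measured family members (red) and the 14 other cell cycle miRNA probes detected in both libraries (grey), each set in rising order. The members, at 26.8% to 46.2%, lie within the range of the let-7 miRNAs (21.5% to 68.5%).

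Markers of MG and of other cells moved between the same libraries. All 5 miRNAs listed for MG (miR-204, miR-9, miR-125b-5p, miR-99a and miR-135a) were detected in both and called lower in Dicer-CKO MG, against 29.9% of all 174. Their summed normalized count was 45797 in Dicer-CKO MG and 311990 in wild-type MG. Their median was 16.6% of wild-type, below each of the 3 family members, and 69.4% when scaled to the summed detected miRNAs, where 3 of the 5 were lower and 2 higher. miR-16 amounted to 4.54% of their sum in Dicer-CKO MG and 1.44% in wild-type MG.

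Most detected miRNAs listed for other cell types were higher in Dicer-CKO MG, though with positive controls only 2 of the 3 neuronal, 1 of the 3 immune and 1 of the 2 photoreceptor miRNAs detected in both turned lower. Over all 174 miRNAs detected in either library, 12.1% were called higher. Of the 4 neuronal miRNAs, 3 were called higher, with sums of 8304 in Dicer-CKO MG and 1109 in wild-type MG. The remaining one, miR-137, had raw counts of 21 in Dicer-CKO MG, below the limit, and 78 in wild-type MG, and its direction was not settled. Of the 3 photoreceptor miRNAs, 2 (miR-183 and miR-96) were called higher, with sums of 3250 in Dicer-CKO MG and 401 in wild-type MG, while miR-182 was at or below the limit in both. Of the 4 immune cell miRNAs, 3 were called higher, with sums of 1153 in Dicer-CKO MG and 235 in wild-type MG, and miR-223 was not detected. One of these 3, miR-142-3p, had a wild-type raw count of 73, just above the limit of 71.7. Of the 3 vascular miRNAs only miR-126-3p was detected, at 785 in Dicer-CKO MG and 121 in wild-type MG. The 3 erythroid miRNAs miR-451, miR-144 and miR-486 were at background in both libraries. miR-16 is known from many cell types, and the part of other cells in the counts of the family was not tested.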

How the data were processed

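Per the labels and methods, miRNAs of sorted MG were tagged by ligation, hybridized to the nCounter mouse panel and counted without amplification, 1 library per group. The authors deposited a raw count of barcodes for each probe, and normalized counts made with nSolver 2.6, a score on the authors' own scale rounded to whole numbers. How nSolver subtracted background is not given in the sources used here.

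All main values start from the raw files. From each count the average of the 8 negative controls was taken off, and counts were multiplied by factors from the geometric means of the 6 positive controls and of the 4 housekeeping mRNAs. Probes were matched by accession. Ratios have exact 95% binomial intervals of the raw counts, and where a probe was detected in 1 library only the ratio is a bound at the limit of the other. Levels have exact 95% Poisson intervals, shares exact (Clopper-Pearson) ones. A call needed 2-fold and an interval without equality. Differences between members have delta-method intervals. Unless the spread of the negative controls was added, intervals cover counting error only, and those of ratios near background are too narrow. The counts computed here were 1.14 times the deposited scores in both libraries, and the deposited scores served as an alternative.

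Named miRNAs were the 6 members, their cluster partners and seed relatives, 6 marker lists, the cell cycle list, and the 3 probes nearest to each member. The members and lists were chosen with earlier results of these data known. The steps were tested on simulated data, with changes of 4-fold or none and only for probes with high wild-type counts. miR-15a, miR-195, miR-497 and miR-322 had lower counts than that. Calls near 2-fold or near the detection limit were therefore not tried. Alternatives were other background, scaling, detection, interval and fold settings. Python 3.11.15, numpy 2.4.6, scipy 1.17.1 and matplotlib 3.10.9 were used.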

Additional observations from a re-analysis of the deposited data

How the results depend on the processing

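The direction of the family rested on the scaling. With the sum of the detected miRNAs the log2 ratios turned to 0.95 for miR-16, 0.68 for miR-15a and 0.16 for miR-15b, the summed count was 183% of wild-type, and 0 members were called lower. With the 100 highest miRNAs, miR-16 was at -0.18, the sum at 83.7% and 0 were called lower. With positive controls only, miR-16 was at -3.55, the sum at 8.05% and 5 were called lower, miR-195 and miR-322 among them by their bounds. Leaving out B2m gave -0.99 for miR-16 and 47.6% for the sum, and leaving out Gapdh -1.23 and 40.2%. Each housekeeping mRNA alone was added after seeing the data. B2m alone gave -1.48 and 33.8%, Gapdh alone -0.75 and 56.1%. Without B2m, and with Gapdh alone, 2 were called lower. A size rule of 4-fold left 0 called lower. The number called higher was 0 under all settings tried.

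Taking off the average of the negative controls and 2 SD more gave -0.94 for miR-16, 2 called lower, differences of 2.12 between miR-16 and miR-15a and of 1.92 between miR-16 and miR-15b, and shares in Dicer-CKO MG of 95.5% for miR-16, 3.12% for miR-15b and 1.41% for miR-15a. With no subtraction these shares were 84.7% for miR-16 and 6.95% for miR-15a. The order of the members turned with the background step. miR-15a minus miR-15b was -0.20 with the 2 SD more taken off, where miR-15a was at 12.0% and miR-15b at 13.8% of wild-type, and miR-16 minus miR-15a was -0.13 with no subtraction, where miR-15a was at 49.0%. This follows from the 64 and 77 raw counts of miR-15a and miR-15b, which lie near the limit of 53.2. The deposited normalized counts and arithmetic means changed no call. No paired analysis was possible because each group is 1 library, and for the same reason no library could be left out. The depth of the Dicer-CKO library limits miR-195 and miR-322, while miR-497 was at or below the limit in both libraries.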

Other observations

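The probes closest to each measured member in the plane of both normalized log2 counts were named by distance over these 2 libraries, which are only 2 points per probe. Closest to miR-16 were let-7a (33.3% of wild-type, with normalized counts of 1676 in Dicer-CKO MG and 5038 in wild-type MG), miR-29a (46.5%, with 2511 in Dicer-CKO MG and 5402 in wild-type MG) and miR-1944 (70.4%, with 2191 in Dicer-CKO MG and 3114 in wild-type MG). Closest to miR-15b were miR-350 at 32.4%, miR-365 at 20.3% and miR-151-5p at 27.2%. Closest to miR-15a were miR-152 at 28.9%, miR-181c at 47.4% and miR-99b at 26.6%. The distances were 0.30 to 0.63 on the log2 scale.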
